A study of Mus musculus with 30 samples.

Results

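The genes Ppl, Perp, Dsp, Jup, Dsg2, Ctnna1, Ctnnb1 and Ctnnd1 encode proteins of desmosomes and adherens junctions, the cadherin-based contacts that hold epithelial cells together. They were taken by symbol from a table of 12428 genes, in which all 8 were found. All 8 also passed the filter on low values, a group mean that reached 1 CPM in 1 or more of the groups, where CPM are tag counts scaled to a common library total, taken over these genes. The 30 RNA libraries came from mouse embryonic stem cells in the naive state, of C57BL/6J x 129 background, cultured with serum, LIF and 2 inhibitors (of MEK and GSK3). GRHL2-ERT is the epithelial transcription factor GRHL2 fused to an estrogen receptor domain, which tamoxifen brings into the nucleus. GRHL2-ERT double-KO cells (labelled Kmt2cKO; Kmt2dKO;GRHL2-ERT) were given tamoxifen or its vehicle, ethanol. GRHL2-ERT Kmt2c-KO cells (labelled Kmt2cKO; Kmtd fl/fl;GRHL2-ERT) were given tamoxifen or ethanol as well, and Kmt2c-KO cells without GRHL2-ERT (labelled Kmt2cKO; Kmtd fl/fl) were given tamoxifen. Each of these treatments was harvested at 16 h and at 8 h, which made 10 groups of 3 libraries. Every line lacked Kmt2c, so none had both histone methyltransferases intact, and the GRHL2-ERT lines were clones picked for similar GRHL2 expression, per the series' design text. The promoter of the fusion and the number of clones are not given in the sources used here. The labels number the replicates without saying that they came from separate cultures, so each p measured the spread between these libraries, which may be technical.

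In a desmosome, desmogleins such as DSG2 reach across to the neighbouring cell, and inside the cell plakoglobin (JUP) and desmoplakin (DSP) tie them to keratin filaments. Periplakin (PPL) is a plakin of the same family as desmoplakin, and PERP is a membrane protein of desmosomes whose gene was first known as a target of p53. In an adherens junction, the cadherin tail binds p120-catenin (CTNND1) and beta-catenin (CTNNB1), and alpha-catenin (CTNNA1) links the complex to actin. Beta-catenin also carries the Wnt signal, and GSK3, which marks it for degradation, is inhibited in this culture medium. Naive embryonic stem cells grow as compact colonies held by E-cadherin (CDH1). GRHL factors are known as activators of epithelial junction genes.

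Grhl2 tags ran from 51.2 to 125 CPM in double-KO cells with tamoxifen for 8 h and from 32.4 to 52.2 CPM in double-KO cells with ethanol for 8 h. In Kmt2c-KO cells at 8 h they ran from 159 to 189 CPM with tamoxifen and from 158 to 210.4 CPM with ethanol, and in the 6 libraries without GRHL2-ERT from 1.40 to 3.55 CPM. In ethanol at 8 h, double-KO cells thus had less Grhl2 than Kmt2c-KO cells (log2 fold change -2.10 ± 0.25 SE, adjusted p = 1.5e-07), and at 16 h this difference was -0.56 ± 0.25 (adjusted p = 0.062). The targeted genes kept tags: Kmt2c ran from 18.5 to 32.6 CPM in double-KO and from 9.47 to 32.8 CPM in all Kmt2c-KO libraries, and Kmt2d from 5.77 to 13.6 CPM and from 6.13 to 23.4 CPM in the same lines. A 3' tag outside the deleted part, which is not given in the sources used here, checks neither knockout. All 8 naive stem cell markers looked for were measured and above 0 in every library, and their summed level ran from 2219 to 4833 CPM. Among keratinocyte markers, Krt14 and Krt10 were the 2 of 7 that were measured, with a sum of 0.654 to 19.4 CPM. Depth ran from 8.86 to 22.1 M reads, which puts 3 reads, the floor of detection in 1 library, at 0.136 to 0.339 CPM. The 3 double-KO libraries with tamoxifen for 8 h stood apart from each other (correlations of 0.938 or more with the rest of their group, against a median of 0.987 over all groups). With all 3 left out, the 3 comparisons that use them could not be fitted. Each of the 12 others kept its count of called members or gained 1.

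Tamoxifen was followed by more RNA of Ppl and Perp in Kmt2c-KO cells, while the catenins and plakoglobin did not pass the test in any tamoxifen comparison. A member was called where limma's moderated test on log2(CPM + 1), fitted to all 30 libraries, gave an adjusted p under 0.05 over 12414 genes. In double-KO cells 0 of the 8 members were called with tamoxifen at 16 h (0.0403% of all genes in either direction), where 2 had an unadjusted p under 0.05, and 1 of 8, Ppl, was called higher at 8 h (0.0644% of all genes). Array weights gave 1 at 16 h, Ppl (0.76, adjusted p = 0.026), where they called 1.66% of all genes in either direction. In Kmt2c-KO cells 2 of 8 were called higher at 16 h, where 0.290% of all genes were, and the same 2, Ppl and Perp, at 8 h, where 2.92% were. The median log2 fold change over the 8 members was 0.17 in double-KO cells at 16 h, 0.03 in Kmt2c-KO cells at 16 h, -0.05 in double-KO cells at 8 h and 0.56 in Kmt2c-KO cells at 8 h. Over all genes tested, the 4 medians lay between -0.07 and 0.03.

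**Figure D1:**
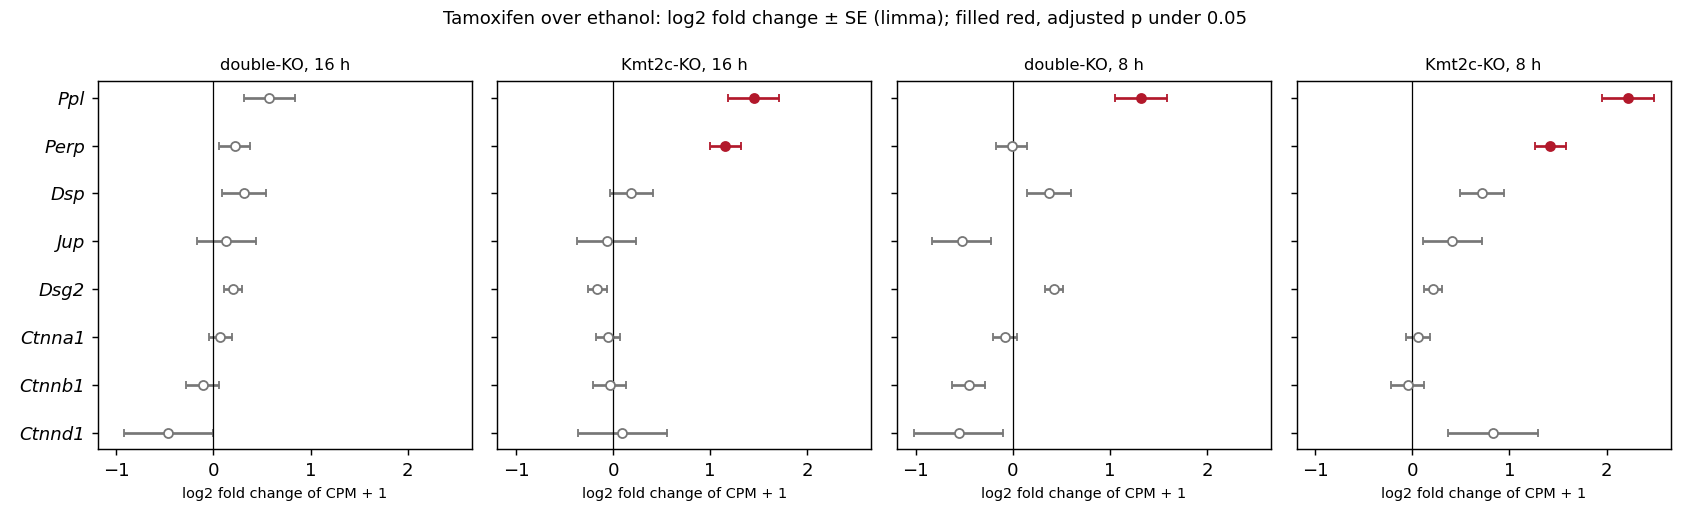
Log2 fold change (tamoxifen over ethanol, of CPM + 1, x axis) of each of the 8 genes (rows), with bars of 1 SE, in double-KO and Kmt2c-KO cells at 16 h and at 8 h. Filled red points have an adjusted p under 0.05: Ppl and Perp in Kmt2c-KO cells at both times, and Ppl in double-KO cells at 8 h.

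Ppl (ENSMUSG00000039457, mm10 chromosome 16, 5086291 to 5132421, minus strand) was at 1.35 CPM or less, and mostly near the detection floor, wherever GRHL2-ERT was absent or tamoxifen was not given. In double-KO cells at 16 h it had 1.02, 0.324 and 1.20 CPM with tamoxifen, against 0.186, 0.412 and 0.0649 CPM with ethanol. These groups overlapped, and the log2 fold change of 0.57 ± 0.26 (SE) was not called (adjusted p = 1). In Kmt2c-KO cells at 16 h it had 1.28, 3.25 and 2.38 CPM with tamoxifen, against 0, 0.318 and 0.216 CPM with ethanol. All 3 tamoxifen libraries lay above the ethanol libraries (log2 fold change 1.45 ± 0.26, adjusted p = 0.0046). The ethanol values stood for 0, 4 and 3 reads. This call was lost without ethanol replicate 1 (adjusted p = 0.058) and without tamoxifen replicate 2 (adjusted p = 0.077).

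At 8 h Ppl reached its highest levels. Double-KO cells had 1.47, 2.71 and 1.95 CPM with tamoxifen, against 0.343, 0.227 and 0.0506 CPM with ethanol, which stood for 7, 5 and 1 reads. The groups did not overlap and the log2 fold change was 1.32 ± 0.26 (adjusted p = 0.032). That call was lost in 4 of the 6 fits that left out 1 library, namely tamoxifen replicate 2 (adjusted p = 0.20) and ethanol replicates 1, 2 and 3 (adjusted p of 0.072, 0.14 and 0.055), and with a pseudocount of 0.1 (adjusted p = 0.10). Kmt2c-KO cells had 5.14, 6.70 and 6.46 CPM with tamoxifen, against 0, 1.35 and 0.487 CPM with ethanol. Every tamoxifen library was above every ethanol library by several CPM (log2 fold change 2.22 ± 0.26, adjusted p = 1.9e-06). Kmt2c-KO cells without GRHL2-ERT had 0.317, 0.131 and 0.323 CPM with tamoxifen at 8 h, in the range of the ethanol libraries, and 0.182, 0.454 and 0.266 CPM at 16 h. The size of a Ppl fold change rests on the pseudocount: in Kmt2c-KO cells at 8 h it was 3.81 with a pseudocount of 0.1 and 0.99 with one of 5, both called.

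Ordered by mean, Ppl ran from 0.178 CPM in Kmt2c-KO cells with ethanol for 16 h to 6.10 CPM in Kmt2c-KO cells with tamoxifen for 8 h. The 6 lowest groups each overlapped with the next in the order. Both 8 h tamoxifen groups with GRHL2-ERT stood clear of the group below them. The response to tamoxifen did not differ by the test between double-KO and Kmt2c-KO cells, by -0.88 ± 0.37 at 16 h (adjusted p = 1) and -0.90 ± 0.37 at 8 h (adjusted p = 0.15, 95% interval -1.66 to -0.13 before adjustment). The second was called without Kmt2c-KO ethanol replicate 2 (-1.21, adjusted p = 0.048) and with a pseudocount of 5 (-0.56, adjusted p = 0.022).

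**Figure D2:**
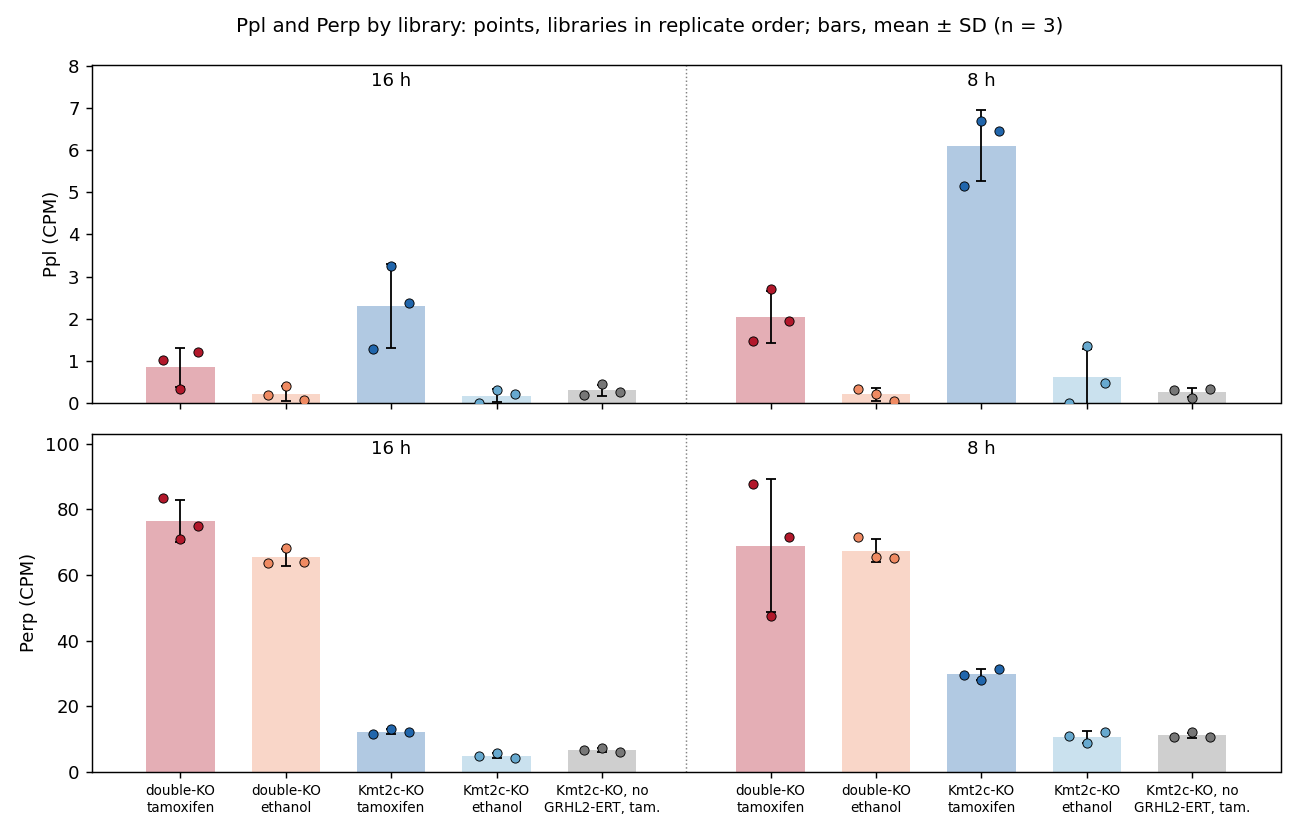
Ppl (top) and Perp (bottom) in CPM (y axes, from 0) in each library, by line and treatment (x axis), at 16 h (left) and 8 h (right). Points are the 3 libraries of a group and bars are the mean with its SD. Ppl peaked at 5.14 to 6.70 CPM in Kmt2c-KO cells with tamoxifen for 8 h, and every double-KO library had more Perp (47.4 CPM or more) than any Kmt2c-KO library (31.5 CPM or less).

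Perp (ENSMUSG00000019851, chromosome 10, 18845020 to 18857073, plus strand) rose with tamoxifen in Kmt2c-KO cells and was several times more abundant in double-KO cells, whether or not tamoxifen was given. In double-KO cells at 16 h it had 83.4, 70.9 and 74.9 CPM with tamoxifen, against 63.8, 68.3 and 64.0 CPM with ethanol. The tamoxifen libraries were the higher ones, by a log2 fold change of 0.22 ± 0.16 that was not called (adjusted p = 1). In Kmt2c-KO cells at 16 h it had 11.5, 12.9 and 12.3 CPM with tamoxifen, against 4.75, 5.80 and 4.31 CPM with ethanol. Here the groups were far apart relative to their spread (log2 fold change 1.16 ± 0.16, adjusted p = 1.2e-04). Without GRHL2-ERT, tamoxifen libraries at 16 h had 6.50, 7.26 and 5.91 CPM, all above the ethanol libraries and below the GRHL2-ERT tamoxifen libraries.

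At 8 h double-KO cells had 87.8, 47.4 and 71.6 CPM of Perp with tamoxifen, against 71.5, 65.5 and 65.3 CPM with ethanol. The tamoxifen libraries fell on both sides of the ethanol libraries, and the log2 fold change was -0.01 ± 0.16 (adjusted p = 0.98, 95% interval -0.33 to 0.31). Kmt2c-KO cells had 29.6, 28.0 and 31.5 CPM with tamoxifen, against 10.8, 8.63 and 12.2 CPM with ethanol. That was a log2 fold change of 1.42 ± 0.16 (adjusted p = 5.3e-07), and the libraries without GRHL2-ERT had 10.7, 12.0 and 10.7 CPM with tamoxifen, like the ethanol libraries. The difference between lines was itself called at 8 h: the response of double-KO minus that of Kmt2c-KO cells was -1.43 ± 0.22 (adjusted p = 9.3e-04), the only called one of the 8 members, where 0.902% of all genes were called lower. Leaving out any 1 library kept this call (adjusted p of 0.0047 or less), while fitting the 12 libraries of the contrast alone lost it (adjusted p = 0.14). At 16 h the same difference was -0.94 ± 0.22, the fourth smallest p of the genes tested, but its adjusted p was 0.65. There 0 of the 8 members were called by limma, 3 had an unadjusted p under 0.05, 0% of all genes were called, and with array weights 1 member, Perp, was (adjusted p = 7.6e-04), among 0.145% of all genes.

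Other measures moved beside these results. Grhl2 differed between the lines in ethanol at 8 h, as given above. At 16 h the summed naive markers ran from 2464 to 2908 CPM with tamoxifen and from 2938 to 3014 CPM with ethanol in double-KO cells, and from 2663 to 2951 CPM with tamoxifen and from 3131 to 3170.5 CPM with ethanol in Kmt2c-KO cells. At 8 h they ran from 3003 to 4833 CPM with tamoxifen and from 3090.5 to 3267 CPM with ethanol in double-KO cells, and from 2219 to 2325 CPM with tamoxifen and from 2841 to 3133 CPM with ethanol in Kmt2c-KO cells, where the ribosomal precursor Rn45s had a log2 fold change of -0.73 ± 0.21 (adjusted p = 0.039). Their part in the responses of Ppl and Perp was not tested. In RNA from whole cultures, fewer cells making a transcript and less of it per cell cannot be told apart.

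Dsp (ENSMUSG00000054889, chromosome 13, 38151294 to 38198577, plus strand), the keratin anchor, was raised in Kmt2c-KO cells that carried GRHL2-ERT relative to those that did not, at 8 h. RefSeq promoter entries (GRCm38.p6) were given for 4 of the 8 members, and the 250 bases before the start of Dsp and of Jup are shown because both sit in the desmosomal plaque, one called against the cells without GRHL2-ERT and the other not. Each reads 5' to 3' on the gene's strand. Dsp lies at chr13:38151044-38151293 (plus) and Jup at chr11:100397791-100398040 (minus).
Dsp: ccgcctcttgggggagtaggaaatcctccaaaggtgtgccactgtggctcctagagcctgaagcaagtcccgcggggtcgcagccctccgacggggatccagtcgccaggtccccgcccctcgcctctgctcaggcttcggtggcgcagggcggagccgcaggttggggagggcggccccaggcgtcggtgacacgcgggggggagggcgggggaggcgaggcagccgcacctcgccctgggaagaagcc
Jup: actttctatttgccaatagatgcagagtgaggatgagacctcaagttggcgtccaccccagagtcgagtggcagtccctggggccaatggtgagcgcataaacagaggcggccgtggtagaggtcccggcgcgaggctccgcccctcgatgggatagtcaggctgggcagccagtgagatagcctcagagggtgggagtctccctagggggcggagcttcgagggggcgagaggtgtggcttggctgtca
The core of the known GRHL motif, AACNNGTT, reads the same on both strands and would be in capitals. It was in 0 of the 6 promoter entries of Dsp, Jup, Ctnnb1 and Ctnnd1, searched over 250 bases before to 50 after the start, and in 4.20% of all 32851 entries of that length. The longer form AACCGGTT, which AACNNGTT includes, was in 0.146% of all entries and in 0 of these 6. No match says only that these letters are not in this window.

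In double-KO cells at 16 h Dsp had 8.45, 10.6 and 10.4 CPM with tamoxifen, against 7.63, 7.42 and 7.98 CPM with ethanol. Kmt2c-KO cells at 16 h had 2.78, 4.11 and 3.92 CPM with tamoxifen, against 2.03, 4.76 and 2.66 CPM with ethanol. The double-KO groups did not overlap, as with 3 of the 8 members here (Perp, Dsp and Dsg2) and 7.45% of all genes in this direction, and the Kmt2c-KO groups did overlap. Neither difference was called (log2 fold changes 0.32 ± 0.23 and 0.19 ± 0.23, adjusted p = 1 for each). Double-KO cells at 8 h had 11.4, 11.6 and 7.06 CPM with tamoxifen, against 7.20, 5.21 and 10.4 CPM with ethanol. Kmt2c-KO cells at 8 h had 12.1, 14.9 and 14.2 CPM with tamoxifen, against 7.14, 8.63 and 8.11 CPM with ethanol. The Kmt2c-KO libraries did not overlap (log2 fold change 0.71 ± 0.23, adjusted p = 0.064, not called), as was so for 13.0% of all genes in this direction. With the 3 double-KO libraries that stood apart left out of the fit, the adjusted p was 0.029.

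Against Kmt2c-KO cells without GRHL2-ERT, all in tamoxifen, the GRHL2-ERT cells had 2 of 8 members called higher at 16 h (0.644% of all genes) and 4 of 8 at 8 h (2.67%). At 8 h these were Ppl (2.49 ± 0.26), Perp (1.34 ± 0.16), Dsp (0.85 ± 0.23, adjusted p = 0.026) and Dsg2 (0.46 ± 0.09, adjusted p = 0.0028), and at 16 h Ppl (1.30 ± 0.26) and Perp (0.81 ± 0.16). Dsp had 6.17, 6.83 and 8.67 CPM in the 8 h libraries without GRHL2-ERT, all below the GRHL2-ERT libraries with tamoxifen. Its call was lost in 4 of the 6 fits that left out 1 library, each of GRHL2-ERT replicates 2 and 3 and replicates 1 and 2 without GRHL2-ERT (adjusted p of 0.090 to 0.13). Ppl at 16 h likewise lost its call without GRHL2-ERT replicate 2 (adjusted p = 0.10), without GRHL2-ERT replicate 3 and without replicate 1 of the other line (adjusted p of 0.052 and 0.053), as well as with a pseudocount of 0.1 (adjusted p = 0.097). This comparison uses the same tamoxifen libraries as the one against ethanol, so the 2 are not independent, and the transgene and other differences between these lines cannot be told apart.

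**Figure D3:**
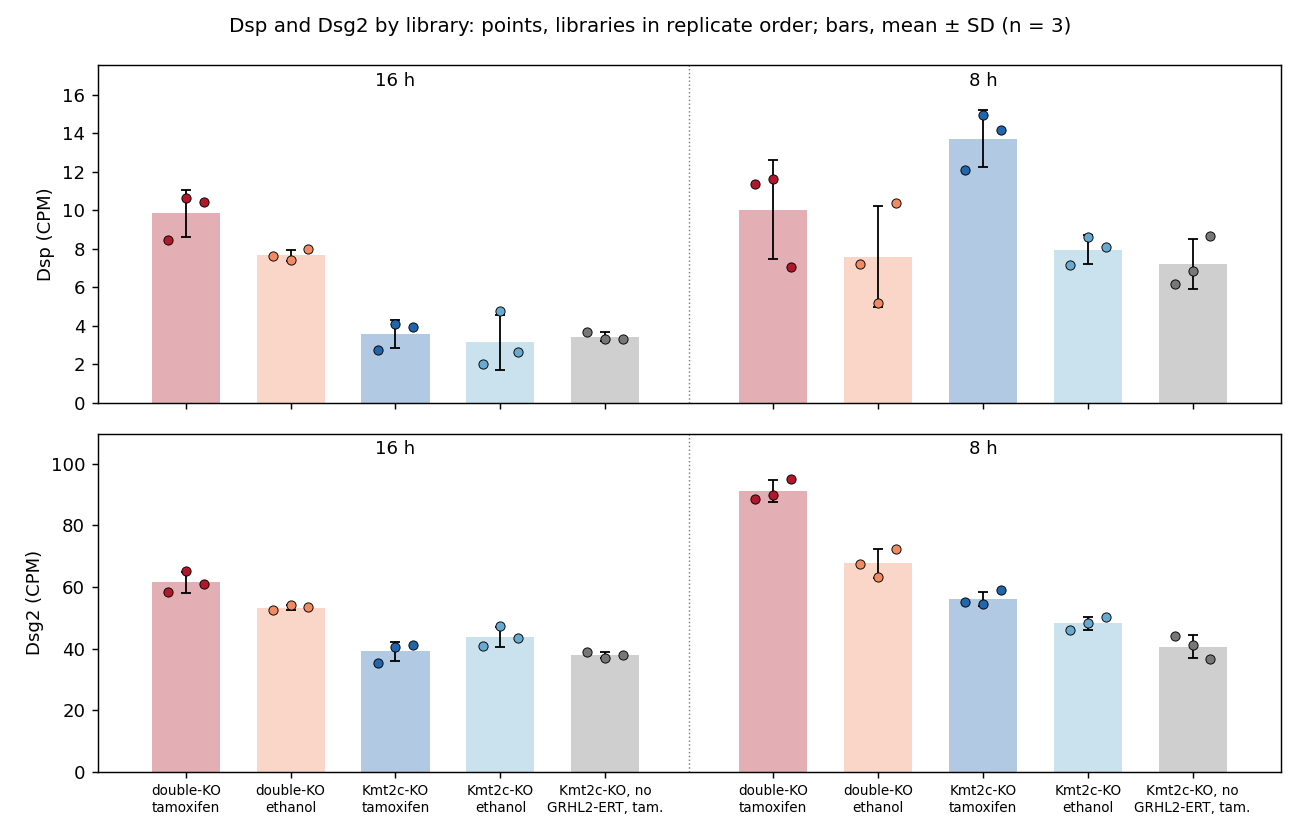
Dsp (top) and Dsg2 (bottom) in CPM (y axes, from 0) in each library, by line and treatment (x axis), at 16 h (left) and 8 h (right). Points are the 3 libraries of a group and bars the mean with its SD. Dsp was at 2.03 to 4.76 CPM in every Kmt2c-KO library at 16 h and at 12.1 to 14.9 CPM in those with GRHL2-ERT and tamoxifen for 8 h, and Dsg2 was highest, 88.6 to 95.1 CPM, in double-KO cells with tamoxifen for 8 h.

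Dsg2 (ENSMUSG00000044393, chromosome 18, 20558074 to 20604521, plus strand), the desmosomal cadherin, varied little within groups, by at most 1.20 times between the highest and the lowest library of a group at 8 h and 1.16 times at 16 h. Double-KO cells had 58.5, 65.1 and 61.1 CPM with tamoxifen for 16 h, against 52.5, 54.1 and 53.5 CPM with ethanol. Kmt2c-KO cells at 16 h had 35.5, 40.6 and 41.3 CPM with tamoxifen, against 40.8, 47.2 and 43.4 CPM with ethanol. Neither was called (log2 fold changes 0.20 ± 0.09 and -0.16 ± 0.09). Double-KO cells at 8 h had 88.6, 89.8 and 95.1 CPM with tamoxifen, against 67.5, 63.2 and 72.3 CPM with ethanol. No tamoxifen library overlapped with ethanol there (3.83% of all genes were so placed), and the log2 fold change of 0.43 ± 0.09 missed the threshold (adjusted p = 0.064, unadjusted rank 20 of 12414). It was called under median-of-ratios scaling (0.51 ± 0.10, adjusted p = 0.033) and, in a separate fit, with a pseudocount of 5 (adjusted p = 0.039). It was also called without tamoxifen replicate 1, tamoxifen replicate 3 or ethanol replicate 3 (adjusted p of 0.049, 0.011 and 0.039). Kmt2c-KO cells at 8 h had 55.1, 54.6 and 58.9 CPM with tamoxifen, against 46.2, 48.4 and 50.3 CPM with ethanol, apart but not called (0.22 ± 0.09, adjusted p = 0.22).

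In ethanol, double-KO cells had more Perp than Kmt2c-KO cells at both times, and this was the largest difference between the lines among the members. Of the 8 members 3 were called higher at 16 h, Perp (log2 fold change 3.49 ± 0.16, adjusted p = 2.9e-16), Dsp (1.12 ± 0.23, adjusted p = 1.7e-04) and Dsg2 (0.28 ± 0.09, adjusted p = 0.016), and at 8 h 3 were, Perp (2.58 ± 0.16, adjusted p = 1.8e-13), Dsg2 (0.48 ± 0.09, adjusted p = 1.7e-04) and Ctnnd1 (1.42 ± 0.46, adjusted p = 0.014). Of all genes 40.0% were called higher at 16 h and 37.6% at 8 h, so the members' counts are at the background. The median of all genes was itself shifted, by 0.35 at 16 h and 0.31 at 8 h. Perp stood well beyond that shift and had the 14th smallest p of all genes at 16 h. With libraries scaled by median of ratios, Perp kept 3.15 ± 0.15 at 16 h and 2.27 ± 0.15 at 8 h, and Dsp kept 0.81 ± 0.23 at 16 h (adjusted p = 0.0053). The call of Dsg2 at 16 h was lost without Kmt2c-KO replicate 1 (adjusted p = 0.081), and that of Ctnnd1 at 8 h without double-KO replicate 1 or 2 or Kmt2c-KO replicate 1 (adjusted p of 0.055 to 0.082). The same scaling turned Dsg2 at 16 h to -0.083 ± 0.10 and left it at 0.17 ± 0.10 at 8 h, neither of them called. It made Ctnna1 lower in double-KO cells (-0.27 ± 0.11 at 16 h, adjusted p = 0.041, and -0.34 ± 0.11 at 8 h, adjusted p = 0.011) and Ctnnb1 lower (-0.37 ± 0.15, adjusted p = 0.045, and -0.50 ± 0.15, adjusted p = 0.0075). Summed primitive endoderm markers, 5 of 7 measured and led by Dab2, ran from 19.98 to 47.6 CPM in double-KO libraries and from 0.900 to 5.77 CPM in Kmt2c-KO libraries, and Sox17 and Sox7 were not measured. Their part in the line differences was not tested. Loss of Kmt2d and other differences between these lines cannot be told apart.

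**Figure D4:**
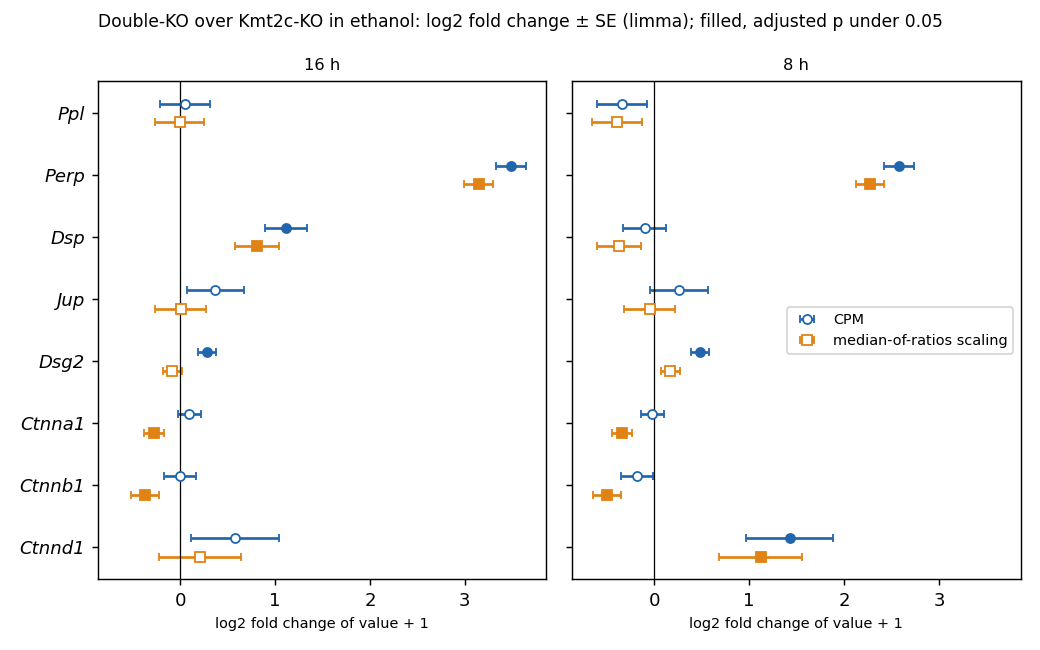
Log2 fold change (double-KO over Kmt2c-KO cells in ethanol, of value + 1, x axis) of each of the 8 genes (rows) at 16 h (left) and 8 h (right), with bars of 1 SE, on CPM (circles) and with median-of-ratios scaling (squares). Filled symbols have an adjusted p under 0.05. Perp stayed at 2.27 or more under both scalings, while Dsg2, Ctnna1 and Ctnnb1 changed call or sign.

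Jup (ENSMUSG00000001552, chromosome 11, 100368958 to 100397763, minus strand) encodes plakoglobin, the catenin that both kinds of junction share, and Ctnnd1 (ENSMUSG00000034101, chromosome 2, 84600071 to 84650765, minus strand) encodes p120-catenin, which holds cadherins at the membrane. Both genes varied widely between libraries of 1 group at 8 h. In double-KO cells at 8 h Jup had 30.9, 14.0 and 43.9 CPM with tamoxifen, against 57.4, 46.4 and 22.2 CPM with ethanol. In the same libraries Ctnnd1 had 16.6, 16.5 and 60.1 CPM with tamoxifen, against 59.1, 48.0 and 19.3 CPM with ethanol. The highest library of each double-KO group at 8 h was therefore the same for both genes, replicate 3 with tamoxifen and replicate 1 with ethanol, and so was the lowest, replicate 2 with tamoxifen and replicate 3 with ethanol. Tamoxifen over ethanol was not called for either gene in any of the 4 comparisons. In double-KO cells at 8 h the log2 fold changes were -0.53 ± 0.30 for Jup (adjusted p = 0.32) and -0.56 ± 0.46 for Ctnnd1 (adjusted p = 0.49). Without tamoxifen replicate 3, Jup was called lower (-0.87, adjusted p = 0.039). Over all fits that left out 1 library its log2 fold change ran from -0.92 to -0.082. The difference of responses at 8 h, double-KO minus Kmt2c-KO, was not called for Jup (-0.94 ± 0.43, adjusted p = 0.18) or Ctnnd1 (-1.39 ± 0.65, adjusted p = 0.19). Without double-KO tamoxifen replicate 3 it was called for both (-1.29 and -1.99, adjusted p of 0.026 and 0.018), and without double-KO ethanol replicate 3 for Jup (adjusted p = 0.043). Leaving out other libraries weakened it, to as little as -0.49 for Jup and -1.08 for Ctnnd1 (highest adjusted p of 0.59 and 0.51).

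In Kmt2c-KO cells at 8 h Ctnnd1 had 34.9, 33.2 and 13.1 CPM with tamoxifen, against 10.8, 18.6 and 12.4 CPM with ethanol, and Jup had 44.6, 48.5 and 38.1 CPM with tamoxifen, against 27.6, 48.3 and 25.5 CPM with ethanol. Both pairs of groups overlapped (log2 fold changes 0.83 ± 0.46 for Ctnnd1 and 0.41 ± 0.30 for Jup, not called). Ctnnd1 spanned up to 3.65 times between the libraries of 1 group at 8 h and up to 2.48 times at 16 h, and Jup up to 3.13 times at 8 h and 1.31 times at 16 h. At 16 h Jup ran from 64.3 to 84.3 CPM in double-KO cells with tamoxifen, from 60.5 to 70.1 CPM in double-KO cells with ethanol and from 40.4 to 56.5 CPM in all Kmt2c-KO libraries. In CPM the lines therefore did not overlap at 16 h. In ethanol the difference of 0.37 ± 0.30 was not called (adjusted p = 0.32), except when the 6 libraries were fitted alone (adjusted p = 1.9e-04) or weighted (adjusted p = 0.023). The median of all genes was itself shifted by 0.35 in this comparison. With median-of-ratios scaling, Jup averaged 58.0 ± 4.73 (SD) in double-KO and 57.6 ± 5.02 in Kmt2c-KO cells with ethanol for 16 h. With tamoxifen for 16 h, double-KO libraries had 98.7, 40.8 and 101 CPM of Ctnnd1, replicate 2 far below the others, against 103, 107 and 97.7 CPM with ethanol (-0.46 ± 0.46, not called).

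**Figure D5:**
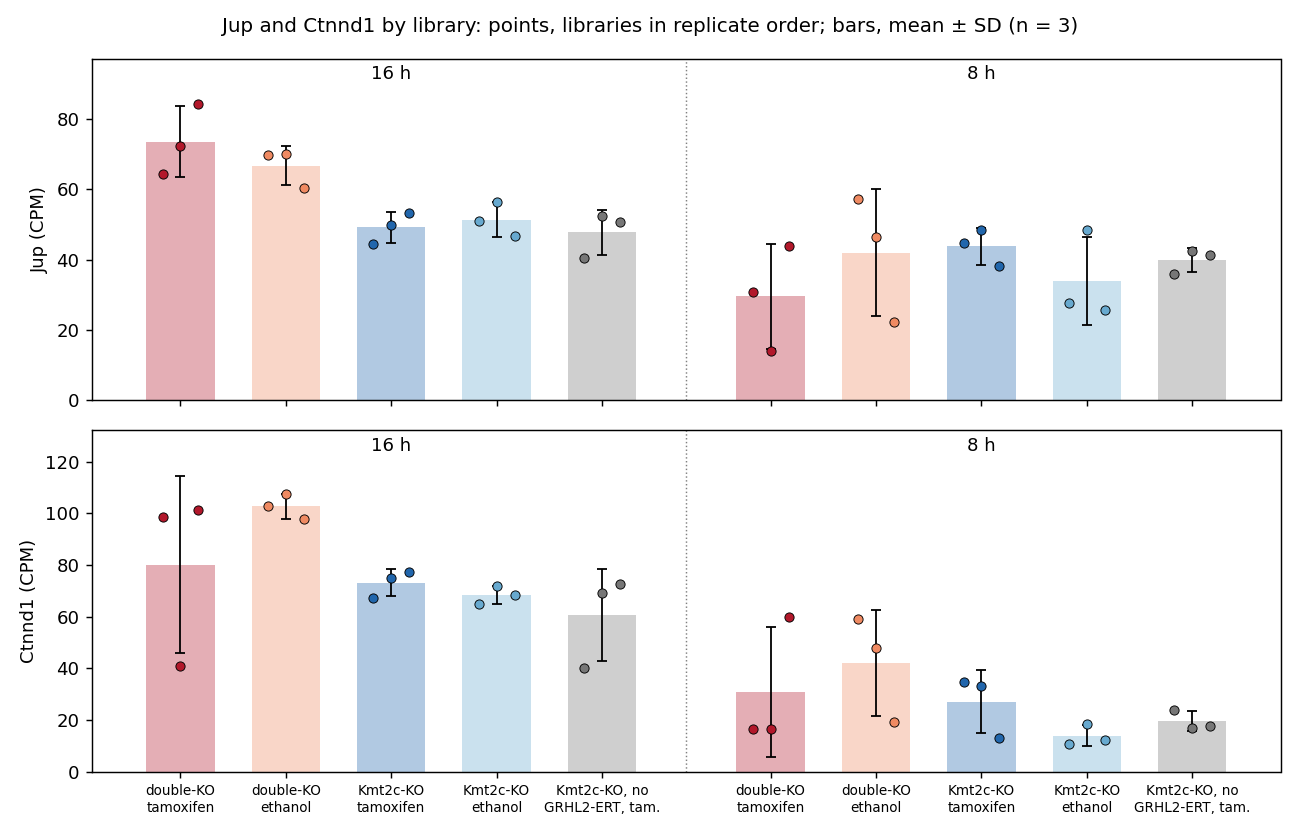
Jup (top) and Ctnnd1 (bottom) in CPM (y axes, from 0) in each library, by line and treatment (x axis), at 16 h (left) and 8 h (right). Points are the 3 libraries of a group, in replicate order, and bars the mean with its SD. Within double-KO groups at 8 h both genes were high and low in the same libraries, with Ctnnd1 at 16.5 to 60.1 CPM with tamoxifen and 19.3 to 59.1 CPM with ethanol.

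Ctnna1 (ENSMUSG00000037815, chromosome 18, 35118859 to 35254779, plus strand) and Ctnnb1 (ENSMUSG00000006932, chromosome 9, 120929216 to 120960507, plus strand), the core of the adherens junction complex, had the narrowest ranges of group means among the 8 genes. The 10 group means of Ctnna1 ran from 165 to 194 CPM, 1.18 times from the lowest to the highest, and each group overlapped with the next in the order. With tamoxifen its log2 fold change was 0.07 in double-KO cells at 16 h (95% interval -0.18 to 0.32), -0.05 in Kmt2c-KO cells at 16 h (-0.30 to 0.20), -0.08 in double-KO cells at 8 h (-0.33 to 0.17) and 0.06 in Kmt2c-KO cells at 8 h (-0.19 to 0.31). Ctnnb1 had group means from 319 to 468 CPM, and the lowest, in double-KO cells with tamoxifen for 8 h, came from libraries of 399, 173 and 387 CPM, against 427, 412 and 389 CPM with ethanol. Replicate 2, at 173 CPM, was the shallowest library of all, with 8.86 M reads. The log2 fold change there was -0.45 ± 0.17 (adjusted p = 0.18), called lower without tamoxifen replicate 3 (-0.64, adjusted p = 0.0098). Over all fits that left out 1 library it ran from -0.66 to -0.058. The other 3 tamoxifen differences of Ctnnb1 lay between -0.11 and -0.03. These intervals are not adjusted for the number of genes.

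Between the harvest times, Ctnnd1 was called in all 3 comparisons, Perp and Dsp only in Kmt2c-KO cells, and Dsg2 only in double-KO cells. The counts of called members were near the shares of all genes given beside them. Between 16 h and 8 h in ethanol, double-KO cells had 1 member called lower (12.5% of all genes), Dsg2 (log2 fold change -0.34 ± 0.09, adjusted p = 0.013), and 1 higher (8.72%), Ctnnd1 (1.41 ± 0.46, adjusted p = 0.033). The Ctnnd1 call was lost there without any 1 of the 3 libraries at 16 h (adjusted p of 0.069 to 0.087) and without replicate 3 at 8 h (adjusted p = 0.20), and the Dsg2 call without replicate 3 at 8 h (adjusted p = 0.073) and under median-of-ratios scaling (adjusted p = 0.055). Kmt2c-KO cells in ethanol had 2 members called lower (27.5%) and 1 higher (17.5%): Perp (-0.95 ± 0.16, adjusted p = 2.8e-05), Dsp (-1.16 ± 0.23, adjusted p = 1.7e-04) and, upwards, Ctnnd1 (2.25 ± 0.46, adjusted p = 4.9e-04). Ctnnd1 had 64.9, 71.9 and 68.6 CPM at 16 h, against 10.8, 18.6 and 12.4 CPM at 8 h in these cells. Kmt2c-KO cells without GRHL2-ERT had the same members called in the same directions in tamoxifen, 2 lower (25.7%) and 1 higher (10.9%): Perp -0.68 ± 0.16, Dsp -0.88 ± 0.23 and Ctnnd1 1.55 ± 0.46 (adjusted p of 0.0014, 0.0035 and 0.012). Jup was not called in ethanol (0.76 ± 0.30 in double-KO cells, adjusted p = 0.077, and 0.64 ± 0.30 in Kmt2c-KO cells, adjusted p = 0.088), but it was higher at 16 h with median-of-ratios scaling (adjusted p of 0.034 and 0.024). Perp, at -0.04 ± 0.16, and Dsp, at 0.06 ± 0.23, were not called in double-KO cells. Whether the lines differ in their change with time was not tested. Of 8 trophoblast markers 5 were measured (Cdx2, Elf5 and Hand1 were not), led by Tfap2c and then Gata3, with medians of 27.3 and 10.1 CPM over all libraries. Summed, these markers ran from 52.0 to 59.1 CPM at 16 h and from 74.3 to 90.8 CPM at 8 h in double-KO ethanol. They ran from 42.2 to 50.1 CPM at 16 h and from 91.6 to 126 CPM at 8 h in Kmt2c-KO ethanol, and from 35.2 to 40.7 CPM and from 95.3 to 118 CPM in the cells without GRHL2-ERT. Their part in the changes with time was not tested. Rn45s was lower at 16 h in the same 3 comparisons (log2 fold changes -0.90 in double-KO ethanol, -1.22 in Kmt2c-KO ethanol and -0.60 in the cells without GRHL2-ERT), and time in culture and any difference in preparation between the times cannot be told apart. The tamoxifen responses at 16 h minus those at 8 h were called for 0 of 8 members by limma in double-KO cells (0% of all genes in either direction, 0 members at an unadjusted p under 0.05) and for 0 of 8 in Kmt2c-KO cells (0.0644%, 2 members at an unadjusted p under 0.05).

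Of the cadherins that bind these catenins, Cdh2 was called lower with tamoxifen over ethanol in 1 comparison and Cdh1 in 0. Cdh1 was not called with tamoxifen in either line at either time (log2 fold changes 0.26 in double-KO cells at 16 h, -0.06 in Kmt2c-KO cells at 16 h, 0.22 in double-KO cells at 8 h and 0.06 in Kmt2c-KO cells at 8 h). Cdh2, N-cadherin, fell with tamoxifen in Kmt2c-KO cells at 8 h, to 2.02, 1.13 and 1.66 CPM, against 4.40, 6.55 and 3.65 CPM with ethanol. That was a log2 fold change of -1.16 ± 0.24 (adjusted p = 0.0035). The other tamoxifen differences of Cdh2 were also negative but not called. They were -0.70 ± 0.24 in double-KO and -0.66 ± 0.24 in Kmt2c-KO cells at 16 h, and -0.35 ± 0.24 in double-KO cells at 8 h. In tamoxifen, Cdh2 was called lower in Kmt2c-KO cells with GRHL2-ERT than without it, at 16 h (-1.07 ± 0.24, adjusted p = 0.022) and at 8 h (-1.62 ± 0.24, adjusted p = 5.0e-05). In ethanol Cdh2 was higher in double-KO cells at 16 h (1.96 ± 0.24, adjusted p = 1.7e-07) and at 8 h (2.60 ± 0.24, adjusted p = 1.2e-09), whereas Cdh1 was lower in double-KO cells at 8 h (-1.23 ± 0.13, adjusted p = 1.7e-08) and not called at 16 h (0.11 ± 0.13). Cdh1 had 92.5 to 109 CPM in double-KO cells with ethanol for 8 h, against 209.9 to 263 CPM in Kmt2c-KO cells.

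Among other genes of these structures, 5 of 13 further desmosome genes were tested: Dsc2, Pkp2, Pkp3, Pkp4 and Evpl, that is a desmocollin, 3 plakophilins and envoplakin, the partner of periplakin. With tamoxifen 0 of these 5 were called in any of the 4 comparisons. Their median log2 fold change was 0.23 in double-KO and -0.056 in Kmt2c-KO cells at 16 h, and 0.78 in double-KO and 0.83 in Kmt2c-KO cells at 8 h. In ethanol 3 of these 5 were called higher in double-KO cells at 16 h, beside 40.0% of all genes, and 2 at 8 h, beside 37.6%. They were Dsc2 (1.71 ± 0.27 at 16 h and 1.74 ± 0.27 at 8 h, adjusted p of 5.8e-06 and 5.4e-06), Pkp3 (1.32 ± 0.39 and 1.31 ± 0.39) and, at 16 h only, Pkp4 (0.38 ± 0.11). The median of all genes was itself shifted by 0.35 at 16 h and 0.31 at 8 h, and Pkp4 lay near that shift. Listed genes are given on CPM only, not with median-of-ratios scaling. Of 18 other adherens junction genes 11 were tested, and with tamoxifen 1 was called, Cdh2, which was lower in Kmt2c-KO cells at 8 h. The share of all genes called lower there is not given here, so this count is not set against a background. Of 8 plakin family and keratin linker genes, all tested, 3 were called higher with tamoxifen in Kmt2c-KO cells at 8 h, where 2.92% of all genes were, and 0 in the other 3 comparisons. They were Krt18 (0.61 ± 0.15, adjusted p = 0.015) and Krt8 (0.57 ± 0.15, adjusted p = 0.021), the simple epithelial keratin pair to which desmoplakin attaches, and Plec (0.70 ± 0.18, adjusted p = 0.017), the plakin plectin. Krt18 averaged 115 ± 3.52 CPM with tamoxifen and 74.8 ± 5.31 CPM with ethanol there (SD, n = 3 each). The median of the 8 was 0.58, against 0.03 over all genes. Compared with Kmt2c-KO cells without GRHL2-ERT, all in tamoxifen, 5 of the 8 were called higher at 8 h, beside 2.67% of all genes, and 0 at 16 h. In ethanol 6 of the 8 were higher in double-KO cells at 16 h, among them Krt18 (2.50 ± 0.15) and Krt8 (1.98 ± 0.15), beside 40.0% of all genes, and 3 at 8 h, beside 37.6%, and 1 was lower at each time.

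Of 14 genes of the beta-catenin destruction complex and its nuclear partners, all tested, 1 was called with tamoxifen. No share of all genes called lower is given here for tamoxifen, so this count is not set against a background. The called gene was Tcf7l1, a repressor partner of beta-catenin. It was lower in Kmt2c-KO cells at 8 h, averaging 100.04 ± 4.99 CPM with tamoxifen and 139 ± 12.0 CPM with ethanol (-0.47 ± 0.10 on the log2 scale, adjusted p = 0.0062). Of 11 symbols listed for beta-catenin target genes, among them both T and Tbxt for the same gene, 8 were tested. By limma 0 of these were called in any of the 4 tamoxifen comparisons. All 9 genes listed as p53 targets beside Perp were tested. In ethanol 8 of them were higher in double-KO cells at 16 h, beside 40.0% of all genes, and 7 at 8 h, beside 37.6%. They included Cdkn1a, the cell cycle inhibitor (2.10 ± 0.11 at 16 h and 1.35 ± 0.11 at 8 h), and Eda2r, a receptor of the TNF family (3.71 ± 0.24 and 3.82 ± 0.24). With tamoxifen 1 of the 9 was called, Ccng1, encoding cyclin G1, in Kmt2c-KO cells at 8 h, where 2.92% of all genes were called higher. Ccng1 averaged 186 ± 9.76 CPM with tamoxifen and 138 ± 12.9 CPM with ethanol there (0.44 ± 0.11, adjusted p = 0.016). Its response also differed between lines at 8 h, with double-KO minus Kmt2c-KO at -0.66 ± 0.16 (adjusted p = 0.029).

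Over the 30 libraries the members did not form 1 pattern. Pearson correlations of log2(CPM + 1) between pairs of members ran from -0.58 for Dsg2 with Ctnnb1 to 0.81 for Perp with Dsg2, with 0.77 for Jup with Ctnnd1. Among 8833 genes with a mean of at least 5 CPM, those most like Perp were Ltbr, Slc25a24 and Klhl13 (r of 0.98, 0.97 and 0.97), and those most like Dsp were Bcl9l, Tpm1 and Krt18 (0.94, 0.90 and 0.90). Ctnnd1 was closest to Rnf146, Pfdn2 and Nup205 (0.98 each), and Jup to Esyt2, Dnaja2 and Actn4 (0.92, 0.92 and 0.91). Dsg2 was closest to Carhsp1, Dbi and Manbal (0.92 each), Ctnnb1 to Cox5a, Tmem59 and Prdx1 (0.93, 0.93 and 0.92), and Ctnna1 to Lbr, Pip4k2c and Rrm2 (0.83, 0.82 and 0.82). Ppl, under the 5 CPM limit, was not compared. These libraries share lines, times and depth, so the correlations are a description.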

How the data were processed

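Per the labels' protocols, total RNA (200 ng) was made into QuantSeq FWD libraries, which read a tag near the 3' end of a transcript, and sequenced single-end (50 bp), so splice forms and alternative ends were not resolved. The deposited table held, in 30 library columns, log2 of CPM plus an offset of 0.124871. Salmon, DESeq2 1.34.0 and mm10 appear in the submitters' processing notes, with no step given for any of them. Columns that begin CKO were read as the GRHL2-ERT Kmt2c-KO line, since only that Kmt2c-KO line has ethanol labels.

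Values were returned to CPM. Reads were recovered from the spacing of low values (95.7% to 97.5% of them whole within 0.05 reads), and floors cover counting error only. Tests used limma 3.58.1 in R 4.3.3 on log2(CPM + 1) over all 30 libraries (a mean per group, variance trend, robust moderation, 20 residual degrees of freedom, 15 contrasts, two-sided), with Benjamini-Hochberg adjustment over the 12414 genes tested, and the script was tested on simulated data. Log2 fold changes on this scale understate changes of low genes and are given with the SE of the fit, and CPM with SD. The members, lists and comparisons were chosen with earlier results of these data known. All 8 members are named, with Cdh1, Cdh2, Grhl2, called genes of each list (at most the 4 with the smallest adjusted p) and the 3 genes most like each member. Positions come from GENCODE vM21. No count model was run because the deposited values are log2.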

Additional observations from a re-analysis of the deposited data

Results flagged for a closer look

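The tamoxifen response of Perp differed between the lines at 8 h by a test of the difference itself, double-KO minus Kmt2c-KO, at -1.43 on the log2 scale (adjusted p = 9.3e-04). Ccng1, one of the p53 targets listed beside Perp, differed in the same test at -0.66 (adjusted p = 0.029). In both cases the 3 double-KO tamoxifen libraries that stand apart enter the test. The lines differed in ethanol at 8 h in Grhl2 (-2.10), and also in Perp (2.58) and Ccng1 (0.96) themselves. A given rise in CPM is a smaller log2 change from a higher level. Mean Perp at 8 h was 67.4 CPM with ethanol and 68.9 with tamoxifen in double-KO cells, and 10.5 and 29.7 CPM in Kmt2c-KO cells. At 16 h, where the difference was not called, these means were 65.4 and 76.4 CPM, and 4.96 and 12.2 CPM. The part of these libraries, of Grhl2 and of the starting levels was not tested. Single outlying libraries were looked for only by correlation with the rest of their group and by leaving out 1 library at a time.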

How the results depend on the processing

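Of 930 member values recomputed under another pseudocount, filter, scaling, weighting, set of libraries or block, 897 kept their side of the threshold. Called values among them also kept their direction. Of the rest, 8 lost their call, 23 gained one and 2 reversed, and of the 897, 17 changed sign without ever being called. The 2 reversals were Dsg2 (-0.083) and Ctnna1 (-0.27) for double-KO over Kmt2c-KO cells in ethanol at 16 h with median-of-ratios scaling. Of 912 values without 1 library, 879 kept their side of the threshold, 22 lost and 11 gained a call. Among these 879, 56 changed sign without ever being called. The count of called members was 1 for tamoxifen in double-KO cells at 8 h, and became 0 with a pseudocount of 0.1, under array weights or when only the contrast's own libraries were fitted, and 2 with median-of-ratios scaling or a pseudocount of 5 (0 to 4 without 1 library). Array weights gave 1 for tamoxifen in double-KO cells at 16 h and 1 for the difference of responses at 16 h, both 0 otherwise, and 5 in place of 3 for the lines in ethanol at 16 h, as did the contrast's libraries alone (2 to 3 without 1 library), where 68.5% and 70.1% of all genes were called in either direction. The difference of responses at 8 h had 1 called member, 2 with a pseudocount of 5 and 0 with its libraries alone (1 to 3 without 1 library). GRHL2-ERT over none at 16 h had 2, and 1 with a pseudocount of 0.1 (1 to 2 without 1 library). For 16 h over 8 h in double-KO ethanol 2 became 1 with its libraries alone (0 to 3 without 1 library). Without 1 library the counts were 1 to 2 for tamoxifen in Kmt2c-KO cells at 16 h, 2 to 2 at 8 h, 2 to 3 for the lines in ethanol at 8 h, 3 to 4 for GRHL2-ERT over none at 8 h, 3 to 4 for 16 h over 8 h in Kmt2c-KO ethanol, 3 to 3 without GRHL2-ERT, and 0 to 0 elsewhere. A fit with 1 library left out keeps 2 in that group. The causes were not tested. Over 135 same-numbered pairs of libraries, correlations of their deviations ran from -0.58 to 0.39, with a median of -0.0043 and 16 over 0.1. Differently numbered pairs were not computed, so this cannot decide whether some groups were paired. The replicate block changed 0 of 120 member calls, with 2 members called for tamoxifen in Kmt2c-KO cells at 8 h as without it. Median-of-ratios scaling moved 35 of 80 group levels by over 1 SD. Ppl, at 0 to 22 reads in ethanol libraries, is the member that depth limits most.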
